A study of Danio rerio with 13 samples.

Results

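Ion channels set the electrical behaviour of the heart, and 138 genes for voltage-gated and potassium channels were followed here across the promoter chromatin of zebrafish hearts, out of 24416 genes with a promoter window outside the mitochondrial genome. A gene was taken when its symbol, read without regard to capitals, begins as those of the potassium channels do (kcn with a family letter and a number), or with scn and a number, cacn, hcn and a number, abcc8 or abcc9. Subunits that open no pore of their own are therefore included, and so are a few proteins that share the name more than the function, such as the cacng genes that accompany glutamate receptors in neurons. The 138 gene IDs carry 137 symbols, because cacna2d4a has 2 IDs, and they own 227 of the 42037 windows. Each gene is described at the 1 window with its highest mean H3K4me3, and both marks are read there.

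The study took the apical part of hearts from TuAB zebrafish aged 1 to 1.5 years, dissociated it, kept what a 10 micrometre mesh retained as a fraction enriched for cardiomyocytes, and profiled it by chromatin immunoprecipitation and sequencing (ChIP-seq). The groups are uninjured hearts and hearts 5 days after the ventricular apex was resected, with 3 libraries per group for H3K4me3 and 3 for H3K27me3, described as biological replicates. The 13 samples also hold 1 mixed input, not used here. H3K4me3 is trimethylation of histone H3 at lysine 4, found at active promoters, and H3K27me3, at lysine 27, is the mark of the Polycomb complex PRC2 at silenced ones. The deposited tables give, per 4 kb window, the mean normalised count over the libraries compared, and for resected against uninjured hearts a log2 fold change, its standard error (SE) and p-values. They hold no value per library, so the spread within a group and any overlap between groups were not analysed here, and the SE carries the replicate error. Every level, log2 fold change, SE and p of a gene below is the authors' value from their deposited tables, and a change was called at their adjusted p under 0.05, from a Wald test over all windows with column names of DESeq2.

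The heartbeat begins as an inward current of sodium and calcium and ends as potassium leaves the cell. Pacemaker channels of the hcn family start the beat, sodium channels drive the upstroke, L-type calcium channels carry the calcium that triggers contraction, and delayed rectifier potassium channels restore the resting state. Inward rectifiers hold the resting potential, and those that pair with a sulfonylurea receptor are closed by ATP. Most families have other members that serve neurons, and zebrafish often keep a pair of paralogues, named a and b, where mammals have a single gene.

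Markers of several cell types were marked and moved between the groups, although the fraction was enriched for cardiomyocytes. Of the 14 cardiomyocyte marker gene IDs 7 lay above the all-gene median of H3K4me3, and the median mean count was 98.4 for these, 217 for endothelial and 95.7 for leukocyte markers. Of 14 cardiomyocyte marker gene IDs, which include myl7, a myosin light chain of the heart (mean count 187), 7 lost H3K4me3 after resection and none gained it (median log2 fold change -0.99). Of 8 leukocyte markers 4 gained and none lost (0.93), of 5 epicardial markers 3 gained (1.00), of 6 erythroid IDs 2 gained (0.60), and of 8 endothelial markers 2 lost (-0.45). None of 7 smooth muscle and pericyte markers (-0.14) or 6 neuronal IDs (0.10) was called in either direction, but only 3 and 2 of them were given an adjusted p. Over all genes 0.881% were called lower and 0.958% higher. Neuronal markers had mean H3K4me3 counts of 5.33 to 73.6, below the all-gene median of 94.0. The marker lists thus moved in both directions, and their part in the changes at channel genes described next was not tested. In such bulk samples fewer cells of a type and less mark per cell cannot be told apart.

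Channel promoters as a set carried little H3K4me3 and more H3K27me3 than most genes. The median channel had a mean H3K4me3 count of 44.1, against 94.0 over all genes, and only 20 of 138 (14.5%) lay above the all-gene median. For H3K27me3 the channel median was 75.2 against 56.7, and 124 of 138 (89.9%) lay above the all-gene median. The 138 windows of channel genes are all 4 kb wide, as are 41998 of the 42037 windows, so levels do not differ between genes through width. They are means over both conditions, and the input was not used here to correct them for other differences between loci. The highest H3K4me3 among channels stood at kcnk6 (238), a two-pore leak channel, kcnk1a (230) of the same family, cacna1g (218), a T-type calcium channel pore, cacna2d1a (208), an accessory subunit of L-type channels, and kcnh6a (202), the delayed rectifier of the zebrafish ventricle. Even kcnk6 reached only the 73.1 percentile of all genes, and no channel exceeded the 75 percentile, at 252. Genes with little H3K4me3 tend to have more H3K27me3 here: among all genes at or below the H3K4me3 median the median H3K27me3 was 68.9, and among the 118 channels there it was 76.8.

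**Figure D1:**
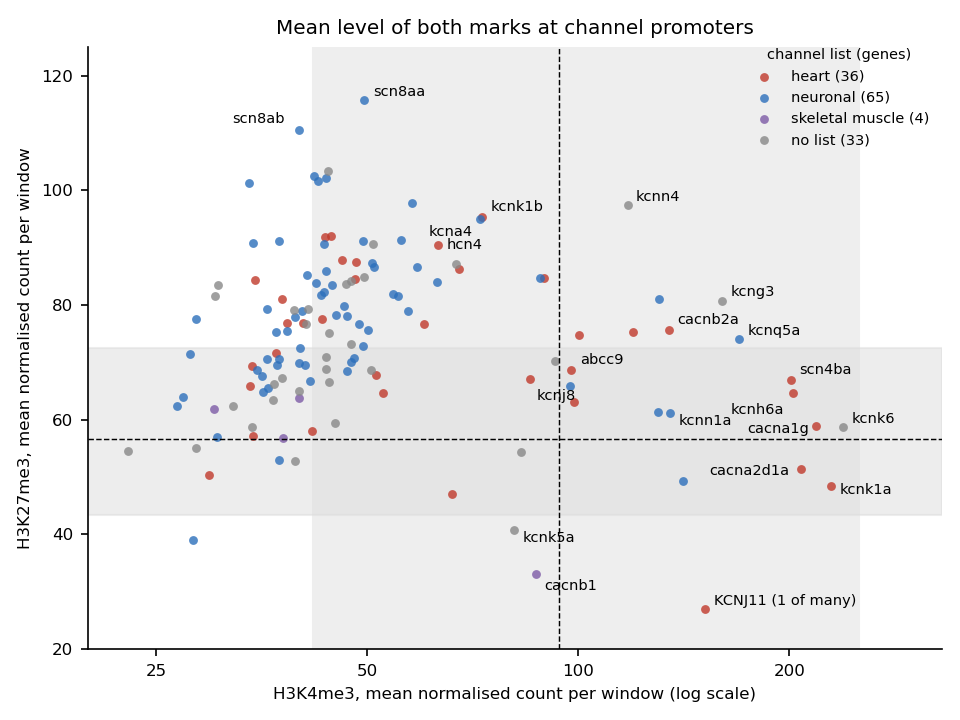
Mean H3K4me3 (x, log scale) and H3K27me3 (y) per promoter window, as mean normalised counts over both conditions, for 138 channel genes coloured by list. Dashed lines are the all-gene medians (94.0 and 56.7) and shaded bands the middle part of all genes between the 25 and 75 percentiles; most channels lie in the upper left, and 11 of the 20 points right of the median of H3K4me3 are heart channels.

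H3K4me3 above the all-gene median was seen at a larger share of heart channels than of neuronal ones, while H3K27me3 was similar on both lists. By textbook function, 36 of the 138 genes were put on a heart list, 65 on a neuronal list and 4 on a skeletal muscle list, and 33 on none. The lists were drawn up with earlier results of these data known, so they are not independent of them. Of the heart list 11 of 36 (30.6%) exceeded the all-gene median of H3K4me3, of the neuronal list 6 of 65 (9.23%), of the skeletal muscle list 0 of 4 and of the remainder 3 of 33 (9.09%). The median H3K4me3 was 56.5 for heart and 43.3 for neuronal channels, and the median H3K27me3 73.2 and 78.1. These are descriptions, since genes are not replicates and no test was made between the lists. The 4 heart genes singled out for comparison, kcnh6a, kcnj8, abcc9 and cacnb2a, had H3K4me3 of 202, 85.4, 97.8 and 135, and H3K27me3 of 64.7, 67.1, 68.7 and 75.6, so each stood above the heart list's median in the first mark (median of the 4, 116) and 1 of them, cacnb2a, above it in the second.

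The heart list was not uniform. Well-known cardiac channels with low H3K4me3 included scn12ab, the sodium channel pore of the zebrafish heart (46.0), kcnj12a, an inward rectifier (41.7), kcnd3 and kcnip2, pore and partner of the transient outward current in mammals (34.6 and 40.6), and kcnj3a, kcnj3b and kcnj5, whose products form the acetylcholine-gated channel of mammalian atria (34.2, 48.3 and 38.4). The L-type pore gene cacna1c stood at 89.4, in a window that overlaps one of dcp1b. Another window on the list, that of the uppercase symbol KCNJ11 (1 of many) at 152, overlaps one of bet1l, and reads at such windows cannot be assigned to 1 gene. In all, 14 of the 138 windows overlap a window of another gene, among them those of kcnk6 and kcna4.

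H3K27me3 was highest at the scn8a pair of neuronal sodium channel pore genes, while scn1lab, a pore gene also on the neuronal list, had 86.6. The pair scn8aa and scn8ab, which encode the pore of axon initial segments and nodes, had 116 and 111, the 96.2 and 95.5 percentiles of all genes. Behind them came cacnb3a (103), cacng3b (102), kcnh5a (102), kcnc1a (102), kcnk18 (101), kcnk9 (97.7), kcnn4 (97.4) and kcnk1b (95.4). The windows of scn8aa and kcnh5a overlap ones of si:dkey-9p24.5 and rhoj. Of these 10 genes 7 are on the neuronal list, only kcnk1b is on the heart list, and kcnn4 alone also had H3K4me3 above the all-gene median (118). The log2 fold changes of H3K4me3 at the 10 ran from -0.26 at scn8ab to 0.47 at kcnn4 in the authors' deposited table, and none was called. Only kcnk9, kcnn4 and kcnk1b among the 10 were given an adjusted p for H3K4me3.

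After resection H3K4me3 fell at kcnh6a, kcnn1a, abcc9 and scn4ba and rose at kcna4, in the authors' deposited table. These 5 are 3.62% of the 138 channels, beside 1.84% of all 24416 genes called in either direction (449). The 4 that fell compare with 0.881% of all genes called lower (215), and the 1 that rose with 0.958% called higher (234). An adjusted p was given to 42 of the channels, those with a mean of at least 51.8, and to 15351 genes, of which 2.92% were called (1.4% lower and 1.52% higher); 5 of 42 is 11.9%. Of the 36 heart channels 3 fell and none rose, and of the 65 neuronal ones 1 fell and 1 rose. The gain on the neuronal list was at kcna4, which in mammals is also known from heart muscle. These counts therefore depend on how the lists were drawn. Only 19 of the heart channels and 15 of the neuronal ones were given an adjusted p, so the others could not be called. The difference between the lists was not tested.

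The largest loss was at kcnh6a, whose product carries the rapid delayed rectifier current that ends the ventricular action potential in zebrafish, and whose mutation disturbs the embryonic heartbeat. Its log2 fold change was -1.12 (SE 0.27, adjusted p = 0.00354 by the authors' deposited table, Wald test), which corresponds to 46.0% of the uninjured level on the authors' scale, where H3K4me3 fold changes appear shrunken towards 0. The gene has 3 windows that nearly coincide, and the other 2 gave -1.09 and -1.10, with adjusted p-values of 0.00486 and 0.00454 in the authors' deposited table. The window lies on chromosome 3 at 31650024 to 31654023, counted from 1, in a build that the tables do not name, as for all positions given here. H3K27me3 there had a log2 fold change of 0.07 (SE 0.41), well within its error of 0.

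H3K4me3 also fell at abcc9, which encodes the sulfonylurea receptor of muscle (chromosome 4, 14656199 to 14660198), with a log2 fold change of -0.98 (SE 0.27, adjusted p = 0.0185, Wald test in the authors' deposited table). Its partner gene kcnj8, the pore of the same ATP-sensitive channel, starts 60.5 kb further along chromosome 4 and had -0.81 (SE 0.28, adjusted p = 0.0905 by the authors' deposited table), which does not pass. The pair thus showed 50.8% and 56.9% of the uninjured level. In mammals both genes are also known from pericytes and vascular smooth muscle. The 7 markers of those cells had H3K4me3 log2 fold changes of -0.58 to 0.25. Only 3 of the 7 were given an adjusted p, and none was called. The part of those cells in the values of abcc9 and kcnj8 was not tested. The second ATP-sensitive pair, abcc8 and kcnj11, lies on chromosome 25, 123 kb apart at the windows read. It had -0.09 (SE 0.29) and -0.66 (SE 0.29), and neither was called in the authors' deposited table. At a mean of 43.1, abcc8 was given no adjusted p. Slightly weaker abcc8 windows further off on either side had means of 41.8 and 39.8 and log2 fold changes of 0.19 and -0.37. The second of these lies nearer to kcnj11. abcc9 also has windows 3.8 kb along, with means of 43.6 and 43.0 and log2 fold changes of -0.33 and -0.32, where no adjusted p was given.

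The sodium channel beta subunit gene scn4ba had one of the strongest H3K4me3 windows of the set (201, on chromosome 15 at 12567522 to 12571521) and a log2 fold change of -0.93 (SE 0.26, adjusted p = 0.0194 by the authors' deposited table, Wald test). Its paralogue scn4bb carried a mean of only 34.3 and had 0.14 (SE 0.30). The neighbouring beta subunit gene scn2b, 44.7 kb away on chromosome 15, had 37.5 and -0.16 (SE 0.30). Of the 6 beta subunit genes 2 lay above the all-gene median level, scn4ba and scn3b (130), which had -0.38 (SE 0.25) and was not called. Beta subunits adjust the gating and placement of the sodium pore. The pore genes themselves, 5 in the set, had means of 38.0 to 58.9 and log2 fold changes of -0.35 to 0.33, none called in the authors' deposited table. Only 1 of these 5, scn1lab, was given an adjusted p, so the others could not be called.

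The remaining loss was at kcnn1a, a small-conductance potassium channel opened by calcium and best known from neurons (-0.96, SE 0.26, adjusted p = 0.0124 by the authors' deposited table, Wald test). The strong window of this gene (135, on chromosome 2 at 24804627 to 24808626) lies 17.3 kb upstream, on the minus strand, of a weak pair (33.8 and 32.6) whose log2 fold changes were 0.03 and -0.03. H3K27me3 at the strong window had 0.81 (SE 0.41, unadjusted p = 0.0499, not called in the authors' deposited table). None of the other pores opened by calcium or sodium was called, and their values lay on both sides of 0: KCNN2 had 0.48 (SE 0.30), kcnn4 0.47 (SE 0.27), kcnma1a 0.33 (SE 0.29), kcnn3 0.24 (SE 0.29), kcnt1 -0.19 (SE 0.30) and kcnt2 -0.44 (SE 0.30). Among these, only kcnn4 and kcnma1a were given an adjusted p.

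The single gain was at kcna4, an A-type potassium pore known from neurons and, in mammals, also from heart muscle (0.95, SE 0.28, adjusted p = 0.0257 by the authors' deposited table, Wald test). Its window, on chromosome 7 at 32325429 to 32329428, had a mean H3K4me3 of 72.5 and a mean H3K27me3 of 94.97, the 92.2 percentile of all genes, and it overlaps a window of CT030129.1, so the gain cannot be assigned to 1 gene. A second kcna4 window centred 1.09 kb upstream had 0.53 and an adjusted p of 0.476 in the authors' deposited table. The next smallest p-values at values above 0, none of them called, were those of kcnab2a, a subunit that attaches to such pores (0.77, SE 0.27, adjusted p = 0.101), cacna1eb, an R-type calcium channel pore (0.72, SE 0.28, adjusted p = 0.187), kcnk5a, a two-pore channel (0.62, SE 0.27, adjusted p = 0.283), and kcnn4 (adjusted p = 0.546). In mammals kcnn4 is a channel of lymphocytes and red blood cells. The leukocyte markers had a median of 0.93 and the erythroid ones 0.60 in the same comparison, and a link with kcnn4 was not tested.

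Just short of the threshold, the next 4 values were all below 0 and all at genes of the heart list. The slow delayed rectifier gene kcnq1 had -0.88 (SE 0.28, adjusted p = 0.0542), and the pacemaker genes hcn2b and hcn4 had -0.85 and -0.88 (SE 0.28 and 0.29, adjusted p = 0.0662 and 0.0678), all from the authors' deposited table. The fourth is kcnj8, and these 4 are the channels with an adjusted p between 0.05 and 0.1. The mean H3K4me3 counts of hcn2b and hcn4 were 98.7 and 63.2. At an unadjusted p under 0.05, 12 channels were lower and 4 higher (8.70% and 2.90%), beside 4.61% and 4.26% of all genes. Of the 12, 9 are on the heart list, 2 on the neuronal list (kcnn1a and cacnb4a) and 1 on the skeletal muscle list, cacna1sa (-0.86, SE 0.30), the pore gene of skeletal muscle, whose mean of 30.2 was too low for an adjusted p.

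Read over whole lists, the channels were centred near 0. The median log2 fold change of H3K4me3 was -0.05 over the 138 genes, -0.12 over the heart list, -0.05 over the neuronal list and 0.03 over those on no list, against 0.01 over all genes. Below 0 were 26 of 36 heart channels (72.2%), 38 of 65 neuronal ones (58.5%) and 14 of 33 on no list (42.4%), against 47.7% of all genes. The lean was stronger at channels with more H3K4me3. Among the 20 channels above the all-gene median level, 16 were below 0, namely 10 of 11 heart, 5 of 6 neuronal and 1 of 3 on no list, beside 44.2% of all genes above that median. Their median was -0.40, and that of all genes above the median level 0.03. Among the 118 channels at or below it, 64 were below 0 (54.2%), beside 51.3% of all genes there, and the median was -0.02. The H3K4me3 fold changes appear shrunken towards 0, more so at low counts, so medians at different levels are not directly comparable. The shares below 0 do not depend on that shrinkage. The 4 exceptions above the median level were KCNJ11 (1 of many), kcnq5a, kcnk6 and kcnn4.

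**Figure D2:**
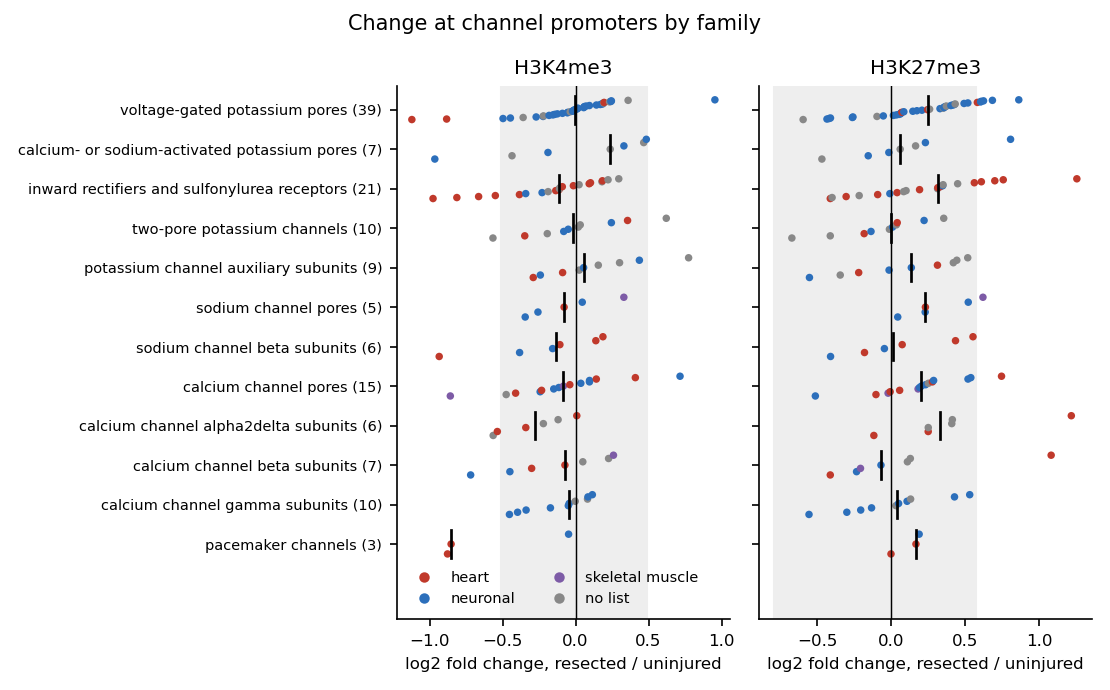
Log2 fold change of resected over uninjured hearts for H3K4me3 (left) and H3K27me3 (right), 1 point per gene, by channel family with the number of genes in parentheses and colour for the list. Sizes in the left and right panels are not on the same scale. The black bar is the family median and the grey band holds all genes from the 5 to the 95 percentile; the points left of the band on the left panel include, from the heart list, both pacemaker genes, kcnh6a, kcnq1, abcc9, kcnj8, scn4ba, kcnj11, kcnj2a and cacna2d1a, and from outside it kcnn1a, cacna1sa, cacnb4a, kcnk7 and 1 of the cacna2d4a IDs.

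The 4 calcium channel genes of the heart list with H3K4me3 above the all-gene median had values below 0, and none was called. The T-type pore gene cacna1g had -0.41 (SE 0.25, adjusted p = 0.617), the accessory gene cacna2d1a -0.54 (SE 0.24, adjusted p = 0.317), cacnb2a, the beta subunit of the heart, -0.30 (SE 0.26, adjusted p = 0.832), and cacna2d2a -0.34 (SE 0.26, adjusted p = 0.772), all from the authors' deposited table. The L-type pore gene cacna1c had 0.14 (SE 0.28), with an adjusted p of 0.971. Of the 15 pore genes, 9 were below 0 and 6 above, with a median of -0.08. Among the alpha2delta subunits 5 of 6 were below 0 (median -0.28), and among the inward rectifiers with their receptors 14 of 21 (-0.11). No gene of the gamma family, 10 in all, was high enough for an adjusted p, with means of 27.9 to 50.2. Among the auxiliary subunits of potassium channels 3 of 9 were below 0 (median 0.05). Of the two-pore potassium channels, kcnk1a had -0.35 (SE 0.24) and kcnk6 0.02 (SE 0.25). None of the 10 genes of the family was called, and 6 of the 10 were given an adjusted p.

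At H3K27me3 no channel was called by the authors' Wald test, deposited under DESeq2's column names, and no other gene was either (0.0% of the 24075 with a test). The smallest p-values among channels were all at values above 0. At an unadjusted p under 0.05, 6 of 138 channels were higher (4.35%) and 0 lower, beside 1.07% and 2.04% of all genes. The 6 were kcnj8 (1.25, SE 0.43, unadjusted p = 0.00325), cacnb2a (1.08, SE 0.38, unadjusted p = 0.00414), cacna2d1a (1.22, SE 0.44, unadjusted p = 0.0053), kcna6a (0.86, SE 0.38), kcnj2a (0.76, SE 0.37) and kcnn1a in the authors' deposited table, and 4 of them are on the heart list. The adjusted p of each was 1.00. Those at kcnj8, cacna2d1a and cacnb2a correspond to 238%, 232% and 211% of the uninjured level.

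Across the set, 95 of 138 channels (68.8%) had an H3K27me3 log2 fold change above 0, against 49.8% of all genes, with a median of 0.16 against -0.00. That background depends on the level of H3K4me3, and among genes at or below its median 62.0% were above 0, beside 83 of 118 channels there (70.3%). Above the median it was 37.8% of all genes and 12 of 20 channels (60.0%), 8 of 11 on the heart list and 3 of 6 on the neuronal list. Over all levels the share was 69.4% for the heart list, 67.7% for the neuronal list and 72.7% for the genes on no list. Voltage-gated potassium pores had 31 of 39 above 0 (median 0.25), and inward rectifiers with their receptors 15 of 21 (0.31). The cardiomyocyte markers had 14 of 14 above 0, and 6 of 8 leukocyte markers lay below 0. The part of these marker lists in the lean was not tested. The median SE of a channel was 0.39, so a 95% interval reaches 0.77 to each side before adjustment, and most single values were not distinguishable from 0.

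A value below 0 for H3K4me3 together with one above 0 for H3K27me3 was more frequent among channels than among all genes, and most so at channels with more H3K4me3. This combination was found at 55 of 138 (39.9%), beside 25.2% of all genes, and at 17 of 36 heart channels (47.2%) and 24 of 65 neuronal ones (36.9%). Above the median level of H3K4me3 it was 12 of 20 channels, beside 19.1% of all genes, and at or below it 43 of 118 (36.4%), beside 31.3%. The reverse was found at 18 of 138, beside 27.6% of all genes. At abcc9 H3K27me3 had 0.56 (SE 0.41), at scn4ba 0.43 (SE 0.43), at kcnq1 0.58 (SE 0.37) and at kcnj2a 0.76 while its H3K4me3 had -0.55 (SE 0.29), in the authors' deposited table. At kcnh6a and hcn2b the log2 fold changes of H3K4me3 were -1.12 and -0.85, while those of H3K27me3 were 0.07 (SE 0.41) and -0.00 (SE 0.40). At cacnb2a the log2 fold change was 1.08 (SE 0.38) for H3K27me3 and -0.30 (SE 0.26) for H3K4me3. No difference between the marks was tested. Their sizes are not on the same scale, because the H3K4me3 fold changes appear shrunken towards 0.

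**Figure D3:**
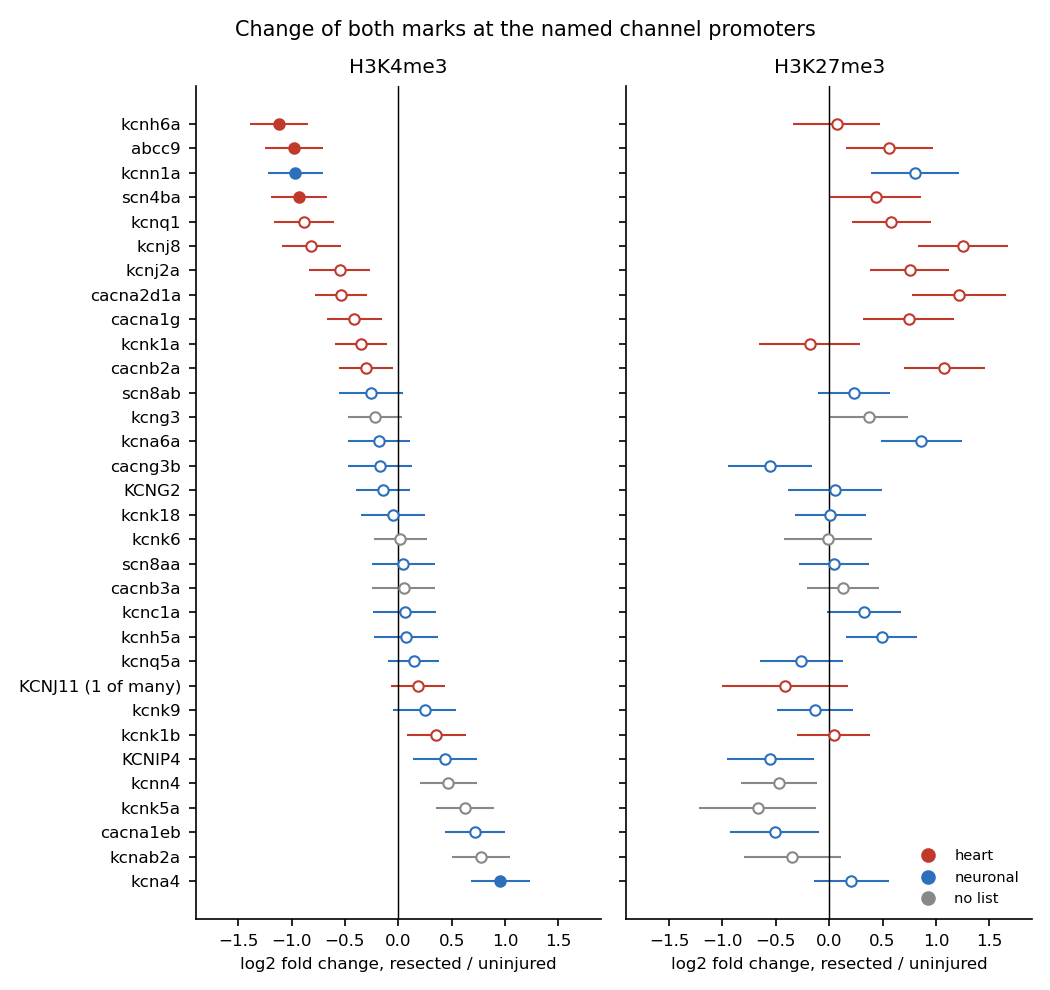
Log2 fold change of resected over uninjured hearts with its SE (bars) at the named channel genes for H3K4me3 (left) and H3K27me3 (right), ordered by H3K4me3, with filled points where the authors' adjusted p is under 0.05 and colour for the list. The top rows are mostly heart channels with H3K4me3 below 0 and H3K27me3 above 0; in the second mark kcnh6a lies close to 0 (0.07) and kcnk1a below it (-0.18). Sizes of the fold changes in the left and right panels are not on the same scale.

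Among the lowest H3K27me3 values, none with an unadjusted p under 0.05, were those of cacng3b (-0.56, SE 0.39), a partner of glutamate receptors, KCNIP4 (-0.55, SE 0.41), a partner of A-type pores, kcnn4 (-0.47, SE 0.36) and cacna1eb (-0.51, SE 0.42) in the authors' deposited table. At kcnk5a it was -0.67, with a wider SE of 0.54. The H3K4me3 values were above 0 at these genes except cacng3b (-0.17, SE 0.30).

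Several channel genes carried more H3K4me3 at 1 of the promoters annotated to them than at the others. Strong and weak are meant within a gene here, since the strongest windows of kcnab2a (82.9) and kcnq5b (88.1) lay below the all-gene median of 94.0. Of 57 channels with more than 1 window, 34 had windows at least 4 kb apart, and at 9 of these the strongest window had over 2 times the mean H3K4me3 of the next. The ratio was 5.74 at cacna1g (218 and 38.0, 224 kb apart), 4.51 at kcnq5a, 4.0 at kcnn1a, 3.69 at cacnb2a (135 and 36.5, 7.35 kb apart), 3.31 at cacna2d2a, 3.16 at scn3b, 2.83 at kcnab2a, 2.35 at cacnb4a and 2.06 at kcnq5b. The strongest window was chosen by that level, so the ratio is a description. The weak windows, at 29.3 to 42.8, were all below the level of the median channel, and their log2 fold changes ran from -0.38 at cacna1g to 0.38 at scn3b with no unadjusted p under 0.05. At cacnb2a the H3K27me3 value was also larger at the strong window (1.08) than at the next (0.39).

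**Figure D4:**
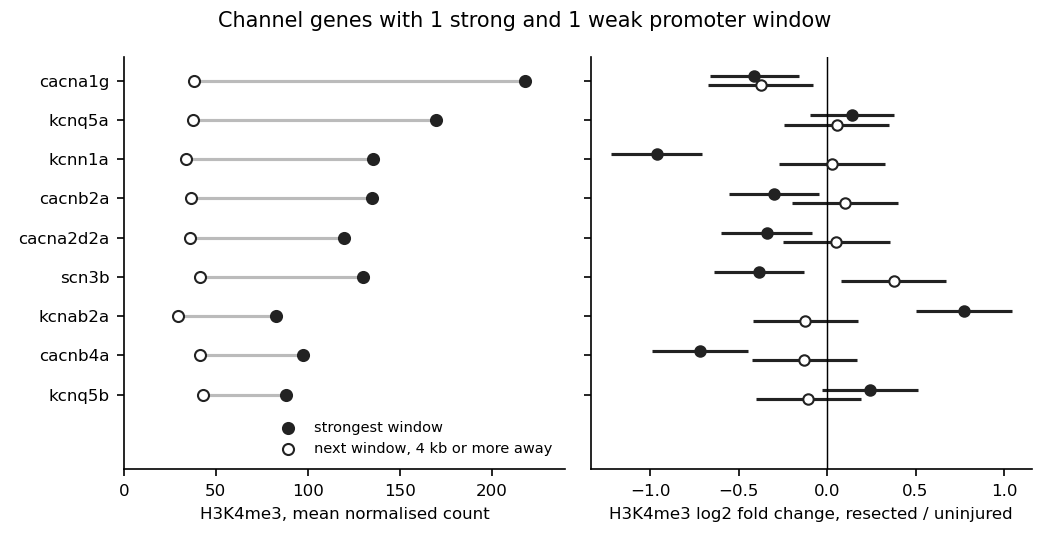
Mean H3K4me3 (left) and its log2 fold change with SE (right) at the strongest window (filled) and the next window at least 4 kb away (open) of 9 channel genes whose strongest window has over 2 times the level of the next. Level contrasts between windows come from how they were chosen; at kcnn1a the strong window had -0.96 and the weak one 0.03.

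Most paralogues had similar levels, but nearly all of these were low in both copies. Among the pairs less than 2 times apart in H3K4me3, only kcnq5a exceeded the all-gene median of 94.0. Of 29 a and b pairs, 6 had levels of H3K4me3 over 2 times apart: scn4ba over scn4bb (ratio 5.85), cacna2d2a over cacna2d2b (3.51), kcnk1a over kcnk1b (3.15), cacnb2a over cacnb2b (2.8), cacnb4a over cacnb4b (2.60) and kcnab2a over kcnab2b (2.02). In each of the 6 the a copy was the higher. The H3K27me3 change also diverged in value at cacnb2, with 1.08 (SE 0.38) at cacnb2a and -0.41 (SE 0.41) at cacnb2b. Other pairs stayed close, such as kcnj2a and kcnj2b, the inward rectifiers that hold the resting potential, with H3K4me3 of -0.55 and -0.38 and H3K27me3 of 0.76 and 0.61 on the log2 scale. These differences were not tested.

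Channel genes that neighbour each other had similar values in some places and not in others. Of 16 neighbouring pairs of windows less than 200 kb apart, abcc9 with kcnj8 had mean H3K4me3 counts of 97.8 and 85.4, on either side of the all-gene median, and log2 fold changes of -0.98 and -0.81. Beside kcnh6a, at a distance of 178 kb, the neuronal pore gene kcnc3a had a mean of 43.7 and -0.50 (SE 0.30). The kcnj1a cluster and kcnj5 on chromosome 18, 5 genes for inward rectifiers, had means of 37.8 to 51.0 and log2 fold changes of -0.19 to 0.30, and the cacng genes on chromosomes 16 and 19 had means of 30.6 to 46.9.

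Genes that work with these channels but carry other names were read in the same way, as 3 lists. Of 25 genes for sodium and calcium pumps, exchangers and intracellular release channels, 2 lost H3K4me3 and none gained it: atp1a3b, a sodium pump subunit (-1.28, SE 0.25, adjusted p = 0.000163), and ryr2b, the calcium release channel (-1.01, SE 0.29, adjusted p = 0.0229, both in the authors' deposited table). Of 27 anchoring and modulating partners, of which 18 were given an adjusted p, none was called. Among them ank3b, an ankyrin that anchors sodium channels, had -0.64 (SE 0.27, adjusted p = 0.242). Of 54 genes of other channel families, trpv1, a heat-gated cation channel in mammals, rose (0.89, SE 0.27, adjusted p = 0.0380) and none fell. An adjusted p was given to 16 of the 25 genes and to 19 of the 54, so the others could not be called. The share called in either direction over all genes was 1.84%, which is about 1 gene in a list of 54. By direction, 0.881% of all genes were called lower and 0.958% higher. The medians of the 3 lists were -0.04, 0.04 and -0.01, beside 0.01 for all genes.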

How the data were processed

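ChIP-seq of H3K4me3 and H3K27me3 was compared between resected and uninjured zebrafish hearts, 3 libraries each. Per the file headers, the authors deposited, for each of 42037 promoter windows, a mean normalised count (a signal per window), a log2 fold change with its SE, a Wald statistic (a score) and p-values, raw and adjusted, with column names of DESeq2. Listed by the submitters' processing notes, without roles, are DESeq2, MACS2, the aligners BWA and Bowtie2 (2.3.2), bedtools (2.26.0), SAMtools and Picard (2.8.1), and as builds danRer10, GRCz10 and danRer7. Size factors and library depths are not given in the sources used here, so mean counts and SEs stand for precision. The H3K4me3 SEs stop at 0.301, as a normal prior with SD 0.603 on the log2 scale would give, so those fold changes were taken as shrunken towards 0, and the marks' sizes are not on the same scale.

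Genes were read at their window of highest mean H3K4me3, and starts were converted to count from 1. Medians, shares and Benjamini-Hochberg adjustments for the alternatives were computed in Python 3.11.15 with pandas 2.3.3 and NumPy 2.4.6, and the functions were tested on simulated data. Genes named are those called, the 4 heart genes, the 10 with the highest mean of each mark, and the 5 smallest p-values per direction and mark, with their paralogues and families; other genes named as examples were chosen after their values were seen, and a few genes that the rule takes are not reported here. Members and lists were chosen with earlier results of these data known. The split of genes at the median H3K4me3 level was chosen after seeing the data. No set test was made, and promoter sequences were not analysed here. The p-values come from a Wald test that sets each log2 fold change against its SE, with 3 libraries per group.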

Additional observations from a re-analysis of the deposited data

How the results depend on the processing

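The 4 losses and the 1 gain of H3K4me3 gave the same counts with the window of highest H3K27me3, with any window of the gene, with a mean of at least 20, and with Benjamini-Hochberg over every window or over 1 window per gene. The lowest channel mean was 22.8, so the limit of 20 left out no channel and could not lower the counts. Taking any window of the gene could not lower them either, because it includes the window already read. At an adjusted p under 0.01 the counts were 1 lower and 0 higher, and under 0.1 they were 8 lower and 1 higher. With windows that overlap another gene left out, 0 were higher, because kcna4 is such a window, and the count of losses stayed at 4. Undoing the prior changed the log2 fold changes of H3K4me3 from -1.12 to -1.56 at kcnh6a, -0.98 to -1.38 at abcc9, -0.96 to -1.28 at kcnn1a, -0.93 to -1.26 at scn4ba and 0.95 to 1.37 at kcna4. The median H3K4me3 of heart channels became 116 for the 4 singled-out genes, and the other medians by list moved by less than 1.5 times. H3K27me3 gave 0 calls under each alternative. No paired analysis was possible because the tables hold no value per library, and leaving out each replicate was not run for the same reason.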
